A study of Mus musculus with 6 samples.

Results

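The histone genes were the genes whose annotated symbol named an H1, H2A, H2B, H3 or H4 histone, and 25 of the 18193 genes on the arrays did so. Each was represented by the probe set (the group of short probes for a transcript) that named it alone and had the highest mean over the arrays. They fell into 10 replication-dependent genes, 7 somatic variants and 8 germline genes. A filter kept genes with an intensity above the array's 20th percentile on at least 1 array, and 23 of the 25 passed, all but the replication-dependent H1f4 and the germline H2bfm.

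RNA had been taken from cultured fetal hepatocytes of E16.5 mouse embryos, exposed to actinomycin D (ActD), a blocker of transcription, for 0, 6 or 12 h. Cnot3KO cells came from embryos in which Cre under the albumin promoter deletes floxed Cnot3, a subunit of the Cnot complex that shortens poly(A) tails. Control cells are labelled wild type, and per the methods a control embryo could carry the floxed allele without Cre, or Cre with at least 1 intact allele. Each genotype and time had 1 array, which gave 6 in all: Cnot3KO at 0, 6 and 12 h and control at 0, 6 and 12 h. The cells of both genotypes had been kept with oncostatin M and dexamethasone, and the sources used here do not say whether embryos were pooled for an array. The study describes Cnot3 as only partly lost in E16.5 livers, and as well depleted once the cells had been cultured.

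Histones package DNA. The replication-dependent genes lie in clusters and are switched on in S phase, and their mRNAs end in a stem-loop that Slbp binds, mostly in place of a poly(A) tail. The variants, such as H2A.Z and H3.3, are made throughout the cell cycle from single genes with ordinary polyadenylated mRNAs. When DNA synthesis stops, stem-loop histone mRNAs are rapidly lost after Lsm1, Upf1 and uridylyl transferases act at their 3′ end, while some cluster genes can also give polyadenylated transcripts, above all in differentiating cells. The labelling of these arrays starts from poly(A), so an intensity here stands for the transcripts that it could reach, and the share of stem-loop forms was not measured.

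The arrays carry no embryo replicates. P-values from limma's fit of genotype and time over the 6 arrays measure how far the genotype difference agreed over the 3 times. The spread behind them may be technical. The test of the difference in change fits a straight line over the hours in each genotype. Its spread is the departure of the arrays from these lines. Values are relative to the other mRNAs on an array, so that an mRNA which outlasts the rest after ActD gains intensity. The array medians lay between 69.7 and 72.4 and the 20th percentiles between 19.7 and 22.4. Cnot3 had an intensity of 174, 174 and 146 in Cnot3KO cells at 0, 6 and 12 h, against 296, 214 and 158 in control cells, on its probe set with the higher mean, a difference of 1.70-fold before ActD. On its other probe set it had 155, 161 and 178 in Cnot3KO cells and 160.4, 211 and 232 in control cells. Whether either probe set lies in the deleted part was not determined. All 8 hepatocyte markers with a probe set of their own passed the filter, with a summed intensity between 164820 and 171920 in Cnot3KO cells and between 159010 and 175780 in control cells.

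Before ActD, no histone gene differed by over 1.5-fold between Cnot3KO and control cells on the probe set chosen for it. A second H2az2 probe set had 79.9 in Cnot3KO cells and 120 in control cells at 0 h, a log2 difference of -0.589. Over the 27 probe sets that name several histone genes, described below, the log2 difference at 0 h lay between -0.50 and 0.68. Over all genes 6.87% were over 1.5-fold higher in Cnot3KO cells at 0 h and 2.99% over 1.5-fold lower. Of the 9 replication-dependent genes that passed, 6 were higher in Cnot3KO cells at 0 h, beside 55% of all genes, with a median difference of 0.04 on the log2 scale, beside 0.04 over all genes. Of the 7 variants 6 were lower, with a median of -0.22. The 7 germline genes had a median of 0.10. Probe sets of the same gene differ by a standard deviation of 0.24 in this quantity per probe set (4117 genes), which is as large as most of these differences.

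**Figure D1:**
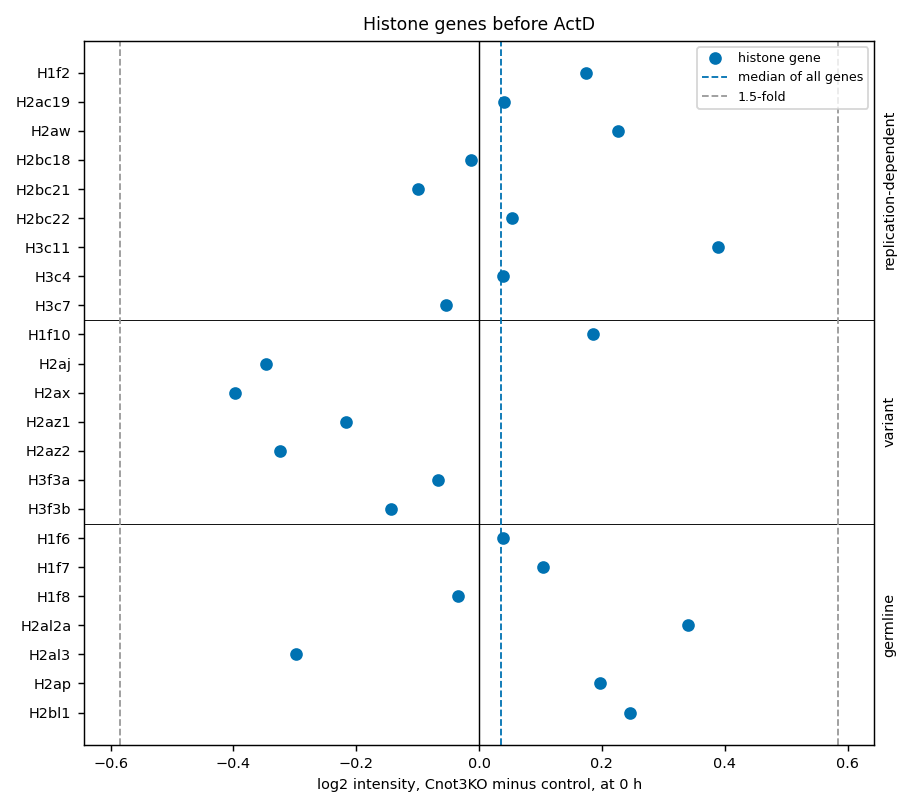
The difference in log2 intensity between Cnot3KO and control cells before ActD (x axis, Cnot3KO minus control) is plotted for each of the 23 histone genes that passed the filter, 1 point per gene from 1 array per genotype. The blue dashed line is the median of all genes and the grey dashed lines mark 1.5-fold. All points lie inside 1.5-fold, and 6 of the 7 variants lie below 0.

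Among the variants, H2ax codes for the H2A.X that is phosphorylated around DNA breaks, and its mRNA is known in both a stem-loop and a polyadenylated form. H2ax had intensities of 2007, 1936 and 1508 in Cnot3KO cells at 0, 6 and 12 h, against 2644, 2794 and 1889 in control cells. It was lower in Cnot3KO cells at each time, by 0.40, 0.53 and 0.32 on the log2 scale, but the ranges over the times overlapped. H2az1 and H2az2 code for H2A.Z, found in the nucleosomes beside active promoters. H2az1 had 6339, 7933 and 6676 in Cnot3KO cells, against 7365, 9594 and 10302 in control cells. H2az2 had 1378, 1588 and 1547 in Cnot3KO cells, against 1726, 2040 and 1889 in control cells, so that its ranges did not overlap. H1f10, which codes for the linker histone H1X, had 129.5, 115 and 123 in Cnot3KO cells, against 114, 129 and 140.3 in control cells, and was the variant that was higher in Cnot3KO cells before ActD.

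H2aj codes for H2A.J, a mammalian H2A variant that accumulates in senescent human fibroblasts. H2aj had intensities of 1443, 2121 and 2863 in Cnot3KO cells at 0, 6 and 12 h, against 1835, 3601 and 4977 in control cells. It was lower in Cnot3KO cells at all 3 times and higher at each later time in both genotypes. The fitted genotype difference was -0.64 ± 0.16 on the log2 scale (SE), 1.55-fold, with an unadjusted limma p of 0.008 and an adjusted p of 0.0669. That adjusted p was the lowest among the histone genes and missed the threshold of 0.05. A second H2aj probe set had 131, 364 and 459.8 in Cnot3KO cells and 143, 355 and 518 in control cells, so the genotypes lay closer there.

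Over the 3 times no histone gene passed the genotype test at an adjusted p under 0.05 (limma, Benjamini-Hochberg over 16499 genes), and 0.988% of all genes did. At an unadjusted p under 0.05, 2 of the 9 replication-dependent genes (H2bc21 and H3c7) and 4 of the 7 variants (H2aj, H2ax, H3f3a and H3f3b) were lower in Cnot3KO cells. None of the 23 was higher. These counts were 0 and 0 without the 6 h arrays, 0 and 3 without the 12 h arrays, and 6 and 5 without the 0 h arrays. Of all genes 22.4% were higher at that level and 11% were lower, so the split of the histone genes ran opposite to that of the arrays as a whole. Lower in Cnot3KO than in control cells at each of the 3 times were 3 of the 9 replication-dependent genes, 6 of the 7 variants and 2 of the 7 germline genes, beside 29.2% of all genes.

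After ActD few replication-dependent genes in Cnot3KO cells, and most in control cells, had an intensity over 1.5-fold above that at 0 h. In Cnot3KO cells 2 replication-dependent genes, 1 variant and no germline gene were over 1.5-fold higher at 12 h than at 0 h, beside 9.72% of all genes, and none was over 1.5-fold lower, beside 10.5%. In control cells 7 of the 9 replication-dependent genes were over 1.5-fold higher, as were 3 of the 7 variants and 2 of the 7 germline genes. Of all genes 18.9% were that much higher and 23.2% that much lower. No histone gene was over 1.5-fold lower on the probe set that names it alone. Some probe sets that name several histone genes were, as given below. The median change over 12 h of the replication-dependent genes was 0.38 in Cnot3KO cells and 1.08 in control cells on the log2 scale. That of the variants was 0.17 in Cnot3KO cells and 0.48 in control cells. The median of all genes was 0.08 in Cnot3KO cells and 0.15 in control cells.

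**Figure D2:**
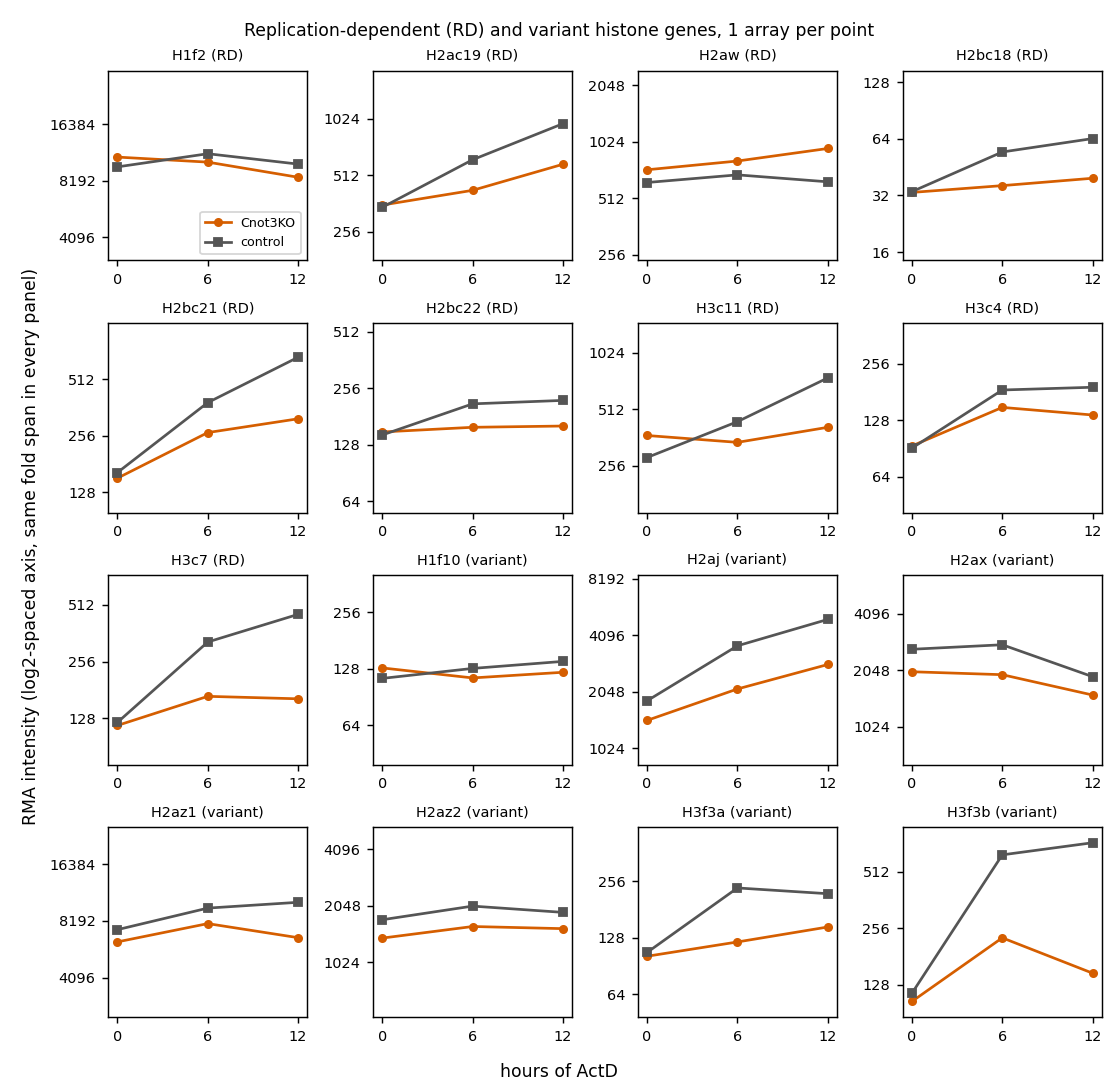
RMA intensity (y axis, log2-spaced, with the same fold span in every panel) against hours of ActD (x axis) for the 9 replication-dependent (RD) and 7 variant histone genes that passed the filter, with Cnot3KO cells in orange circles and control cells in grey squares, 1 array per point. H2ac19, H2bc21, H3c11 and H3c7 lie within 1.5-fold of each other in the 2 genotypes at 0 h, and lower in Cnot3KO than in control cells at 12 h.

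H2bc21, a cluster gene for H2B whose protein replaces the canonical H2B in mouse olfactory neurons, had 152, 266 and 315 in Cnot3KO cells at 0, 6 and 12 h, against 163, 384 and 670.4 in control cells. It rose over 12 h, with a change of 1.05 on the log2 scale in Cnot3KO cells and 2.04 in control cells. The fitted change at 12 h, taken over both genotypes together, was 1.55 ± 0.26 (SE), with a limma adjusted p of 0.0358. P-values of this change measure how far the genotypes agreed in it, not its spread over embryos. H2aj was the other histone gene that passed this limma test of the change, with a fitted change of 1.21 ± 0.20 and an adjusted p of 0.0333. Over all genes 2.24% passed upwards and 4.53% downwards. At an unadjusted p under 0.05 the change was upwards in 6 of the 9 replication-dependent genes, 3 of the 7 variants and 1 of the 7 germline genes, beside 14% of all genes. On the probe set whose name carries no suffix (a mark of sequence shared between transcripts) the change of H2bc21 in control cells was 1.40, so that the size of its change depended on the probe set.

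H3c7, H3c11 and H3c4 are cluster genes for the canonical H3. H3c7 had 117, 167 and 162 in Cnot3KO cells, against 121, 325 and 456 in control cells, a change of 0.47 in Cnot3KO cells and 1.91 in control cells over 12 h. H3c11 had 371, 341 and 411 in Cnot3KO cells, against 283, 440.02 and 753 in control cells. It was 1.31-fold higher in Cnot3KO cells at 0 h, the largest difference upwards among the histone genes, and 1.83-fold lower in Cnot3KO cells at 12 h. H3c4 had 93.5, 150.05 and 137 in Cnot3KO cells, against 91.04, 186 and 192 in control cells, and was higher at 6 and 12 h than at 0 h in both genotypes.

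H2ac19 codes for a canonical H2A. It had 356, 426 and 586 in Cnot3KO cells, against 346, 619.8 and 965 in control cells, and its second probe set had 346, 374 and 497 in Cnot3KO cells and 289, 497 and 852 in control cells. The probe sets gave the same order at 12 h. H2bc18 and H2bc22 are cluster genes for H2B. H2bc18 had 33.2, 36.1 and 39.5 in Cnot3KO cells, against 33.5, 54.6 and 64.3 in control cells, all under the array medians. H2bc22 had 149.6, 158 and 161 in Cnot3KO cells, against 144, 211 and 220.2 in control cells.

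On the probe set with the highest mean H1f2 and H2aw were the replication-dependent genes not over 1.5-fold higher at 12 h in control cells. H1f2, which codes for a somatic linker histone, had 10943, 10287 and 8544 in Cnot3KO cells, against 9705, 11403 and 10041 in control cells. Its intensity was lower at 6 and 12 h than at 0 h in Cnot3KO cells and higher in control cells, as for 1 variant (H1f10), 2 germline genes and 7.55% of all genes. On the other H1f2 probe sets this pattern did not hold. A second had 4875, 4862 and 3802 in Cnot3KO cells, against 6006, 5937 and 7342 in control cells. The dimmest had 115, 120.3 and 111 in Cnot3KO cells, against 96.6, 141 and 166 in control cells. That probe set was over 1.5-fold higher at 12 h in control cells. H2aw, an H2A gene outside the large clusters, had 727, 809 and 944 in Cnot3KO cells, against 622, 683 and 627 in control cells. It was the only replication-dependent gene whose change over 12 h was larger in Cnot3KO cells, and at 12 h it was higher there by 0.59 on the log2 scale.

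**Figure D3:**
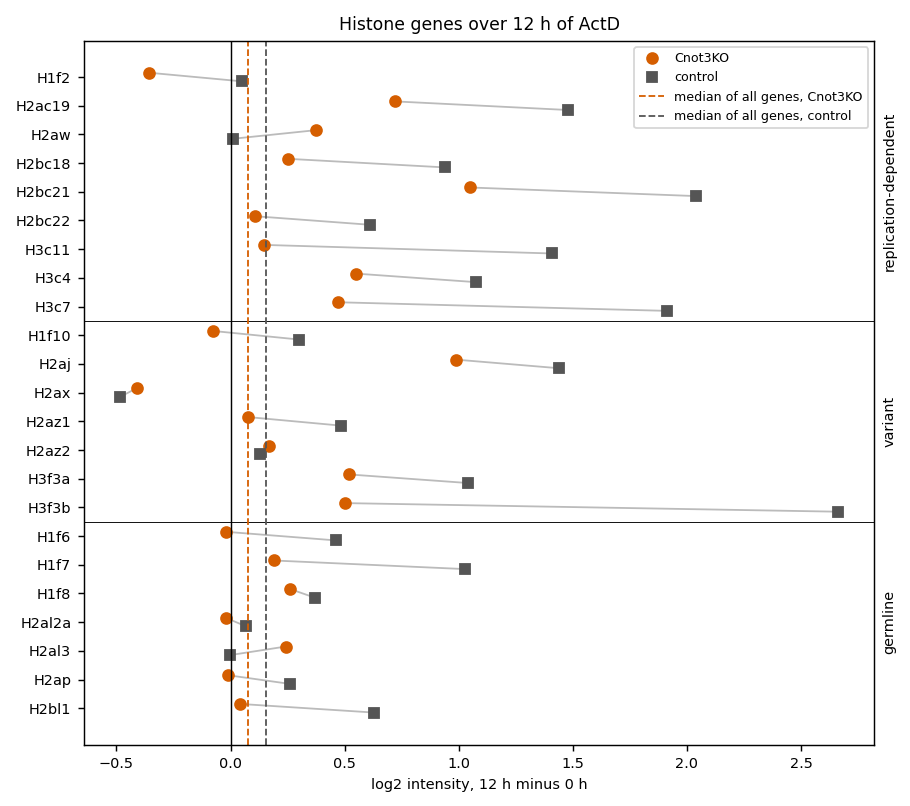
The change in log2 intensity over 12 h of ActD (x axis) for each of the 23 histone genes, with Cnot3KO cells as orange circles above and control cells as grey squares below, joined by a line. Dashed lines give the median of all genes in each genotype. In 8 of the 9 replication-dependent genes the control point lies to the right of the Cnot3KO point.

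The change over 12 h was smaller in Cnot3KO than in control cells in 8 of the 9 replication-dependent genes, 5 of the 7 variants and 6 of the 7 germline genes, beside 52.9% of all genes. The median difference in change was -0.69, -0.41 and -0.27 for these classes, beside -0.04 over all genes. In 5 of the 9 replication-dependent genes, 1 of the 7 variants and 2 of the 7 germline genes the change was smaller by over 0.58 on the log2 scale, beside 12.3% of all genes. No gene passed the test of this difference at an adjusted p under 0.05 (limma's genotype by hours term, 0% of all genes). At an unadjusted p under 0.05 the change was smaller in Cnot3KO cells for 4 replication-dependent genes (H2ac19, H2bc21, H3c11 and H3c7), no variant and 1 germline gene (H1f7), beside 4.95% of all genes, and larger for none, beside 12.8%. The lowest p was that of H3c11 (difference -1.26 ± 0.31, SE), whose unadjusted p was 0.00648. A test of the classes against each other was not made, and the medians do not show that they differ.

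Probe sets of the same gene differ by a standard deviation of 0.25 in the change over 12 h in Cnot3KO cells and 0.51 in control cells, per probe set. The change also varied with the mean intensity of a gene. Over all genes the median change in Cnot3KO cells was 0.10, 0.10, 0.01 and 0.05, and in control cells 0.33, 0.22, -0.30 and 0.03 from the dimmest to the brightest of 4 equal bins. Of the 9 replication-dependent genes 1, 2, 4 and 2 lay in these bins, and of the 7 variants 0, 2, 1 and 4. The bin with 4 replication-dependent genes was the one whose median was below 0 in control cells, and the others lay in bins with medians above 0. The part of mean intensity in the histone changes was not tested.

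At 12 h 5 of the 9 replication-dependent genes and 4 of the 7 variants were lower by over 1.5-fold in Cnot3KO cells, beside 13.8% of all genes. A fit over the 6 and 12 h arrays alone, an alternative to the fit over all times, gave calls that the full fit did not. Lower in Cnot3KO cells at an adjusted p under 0.05 were 5 replication-dependent genes (H2ac19, H2bc18, H2bc21, H3c11 and H3c7), 3 variants (H2aj, H3f3a and H3f3b) and 1 germline gene (H1f7), and none was higher. Over all genes 11% were lower and 24.3% higher in that fit, which rests on 2 arrays per genotype. It leaves 1 residual degree of freedom, so its p-values rest largely on the spread pooled over genes. Its SE was thus much alike between genes, such as 0.19 for H1f10 and 0.22 for H3f3b. H3c7 was lower by 2.34-fold over these times (adjusted p = 0.00027, limma), H2bc21 by 1.75-fold (adjusted p = 0.0063) and H2aj by 1.72-fold (adjusted p = 0.0053).

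H3f3a and H3f3b both code for H3.3, which is placed in chromatin independently of DNA synthesis. On the probe set that names it alone H3f3b had 104, 228 and 147 in Cnot3KO cells, against 115, 629 and 730.3 in control cells. H3f3a had 102, 122 and 146 in Cnot3KO cells, against 107, 236 and 219.9 in control cells. A further 5 probe sets name several H3.3 genes, and their intensities lay between 3461 and 13972. The change over 12 h of these was between 0.02 and 0.33 in Cnot3KO cells and between -1.03 and 0.48 in control cells, against 0.50 in Cnot3KO cells and 2.66 in control cells for H3f3b. That with the highest single intensity had 13743, 13945 and 13972 in Cnot3KO cells at 0, 6 and 12 h, against 10432, 7044 and 5098 in control cells. Another had 6228, 7404 and 6489 in Cnot3KO cells, against 6060.5, 4639 and 3461 in control cells. These 2 were thus higher in Cnot3KO cells at each of the 3 times, opposite to the probe sets that name H3f3a or H3f3b alone, and the other 3 were lower at each time. Without H3f3a and H3f3b 1 variant, H2aj, was over 1.5-fold higher at 12 h in control cells. Of the variants over 1.5-fold lower in Cnot3KO cells at 12 h on the chosen probe set, H2aj and H2az1 remain without them. Of the 3 variants called in the fit over the 6 and 12 h arrays, H2aj remains. On the other H2aj probe sets the log2 difference at 12 h was -0.17 and -0.29, and on the second H2az1 probe set -1.06. The 2 that name H2az1 with Gm8203 had 17493 and 2059 in Cnot3KO cells at 12 h, against 17713 and 3910 in control cells.

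In all 27 probe sets, with the 5 of H3.3 among them, named several genes, and these are described by family only. Most name cluster genes, which are closely alike. Of the rest 2 name H2az1 with Gm8203, 1 names H2aw with Trim17 and 1 names germline H2A.L genes. In Cnot3KO cells 4 of the 5 H4 probe sets were over 1.5-fold higher at 12 h, with changes between 0.16 and 0.96, and in control cells all 5 were, with changes between 1.42 and 2.06. Of the 6 H2B probe sets none was over 1.5-fold higher in Cnot3KO cells and 3 were in control cells, with medians of 0.16 in Cnot3KO cells and 0.57 in control cells. These 3 had 28.4, 110 and 454 in control cells at 12 h, and no intensity filter was applied to the shared probe sets. The 2 brightest H2B probe sets had 12016 and 13808 in control cells at 12 h. Their changes were 0.33 and 0.41 in control cells and 0.14 and 0.07 in Cnot3KO cells. Of the 5 H3 probe sets 1 was over 1.5-fold higher in Cnot3KO cells and 3 were in control cells, with medians of 0.09 in Cnot3KO cells and 0.71 in control cells. Of the 3 H2A probe sets 1, which names 10 H2A genes, was over 1.5-fold lower at 12 h in both genotypes. Its change was -1.45 in Cnot3KO cells and -0.95 in control cells. It had 15728, 9667 and 5759 in Cnot3KO cells at 0, 6 and 12 h, against 17753, 12163 and 9171 in control cells. The change over 12 h was smaller in Cnot3KO cells in 21 of the 27, and the probe sets overlap in their targets and so are not independent.

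**Figure D4:**
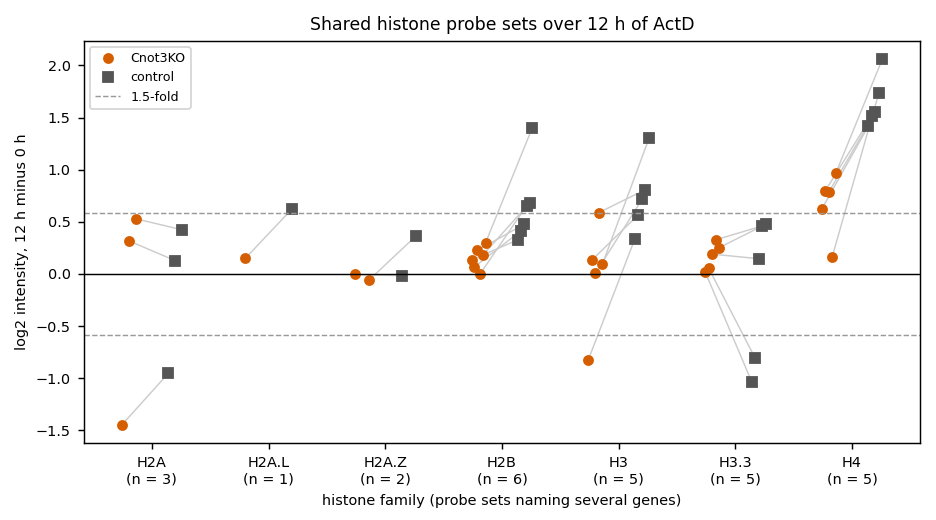
The change in log2 intensity over 12 h of ActD (y axis) for the 27 probe sets that name several histone genes, by family (x axis, with the number of probe sets), with Cnot3KO cells as orange circles on the left and control cells as grey squares on the right, joined by lines. Dashed lines mark 1.5-fold. All 5 H4 probe sets lie above 1.5-fold in control cells, and 1 H2A probe set lies below the lower 1.5-fold line in both genotypes.

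The germline genes code for histones of testis and oocyte, such as the linker histones H1f7 and H1f8. Of the 7 that passed the filter 5 lay in the dimmest of these bins. H1f7 had 33.3, 33.9 and 37.9 in Cnot3KO cells, against 30.9, 47 and 63 in control cells. The others lay between 16.4 and 120.3 in Cnot3KO cells and between 18.7 and 155 in control cells.

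The promoters of 3 replication-dependent members over 1.5-fold higher at 12 h in control cells, of 1 that was not and of 2 variants are shown, since replication-dependent promoters are known to share short elements. ActD blocks transcription, so a promoter bears on the level before ActD and not on the loss of an mRNA. The sequences are the 125 bases before the annotated start of transcription, from RefSeq on GRCm38.p6, which held a promoter for 22 of the 25 members. Capitals mark CCAAT, the octamer ATTTGCAT, AAACACA (the H1 box) or TATAAA on either strand. The replication-dependent H2bc18 (chr3:96269575-96269699, plus strand), H3c11 (chr13:21783398-21783522, minus strand), H2ac19 (chr3:96240375-96240499, minus strand) and H1f2 (chr13:23738682-23738806, plus strand) are followed by the variants H2aj (chr6:136808123-136808247, plus strand) and H2az1 (chr3:137864362-137864486, plus strand).
H2bc18: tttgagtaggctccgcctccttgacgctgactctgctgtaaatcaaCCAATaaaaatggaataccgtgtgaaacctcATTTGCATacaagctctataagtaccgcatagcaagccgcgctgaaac
H3c11: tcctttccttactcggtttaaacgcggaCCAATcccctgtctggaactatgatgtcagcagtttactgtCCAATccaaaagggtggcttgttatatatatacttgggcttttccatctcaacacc
H2ac19: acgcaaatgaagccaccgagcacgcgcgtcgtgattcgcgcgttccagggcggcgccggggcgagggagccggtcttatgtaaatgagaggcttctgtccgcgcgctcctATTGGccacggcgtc
H1f2: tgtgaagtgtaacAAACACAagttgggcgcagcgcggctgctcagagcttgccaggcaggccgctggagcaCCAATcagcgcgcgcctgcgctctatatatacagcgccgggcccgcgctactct
H2aj: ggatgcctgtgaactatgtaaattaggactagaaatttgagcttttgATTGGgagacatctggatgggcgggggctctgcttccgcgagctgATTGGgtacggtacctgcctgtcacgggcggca
H2az1: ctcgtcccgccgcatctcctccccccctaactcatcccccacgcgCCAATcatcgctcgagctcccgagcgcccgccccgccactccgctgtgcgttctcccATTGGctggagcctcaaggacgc

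H2bc18 held CCAAT 79 bases before the start and the octamer 48 bases before it, each counted from the 5′ end of the match. H3c11 held CCAAT at 97 and 56 bases, and H1f2 held the H1 box at 112 and CCAAT at 54 bases. In the 250 bases before the start CCAAT stood in all 8 replication-dependent members with a promoter, in 5 of 6 variants and in 5 of 8 germline genes, beside 37.5% of all 27025 genes. The octamer stood in 2 of the 8 and in 1 of the 6 variants, beside 1.81% of all genes. TATAAA stood in 4 of the 8 and 1 of the 6 variants, beside 14.3%. These matches are descriptions of letters and not of binding.

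The factors that end and degrade histone mRNAs were measured as well. Of 27 such genes 4 were over 1.5-fold higher in Cnot3KO cells before ActD and none lower, beside 6.87% and 2.99% of all genes, with a median difference of 0.18, beside 0.04 over all genes. Zfp473, a zinc finger protein of histone 3′ end formation, was 1.81-fold higher at 0 h, Lsm10, a subunit of the U7 particle, 1.65-fold, Tut4, a uridylyl transferase, 1.61-fold and Nelfe, a subunit of the elongation factor NELF, 1.53-fold. None of the 27 passed the genotype test at an adjusted p under 0.05, while at an unadjusted p under 0.05, 14 were higher in Cnot3KO cells and 3 were lower, beside 22.4% and 11% of all genes.

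Slbp, which binds the histone stem-loop, had 1951, 2209 and 2373 in Cnot3KO cells at 0, 6 and 12 h, against 1426, 1021 and 976 in control cells. Its ranges did not overlap, and its adjusted genotype p was 0.056 (limma). Npat, the activator of the histone clusters, had 402, 184 and 314 in Cnot3KO cells, against 358, 43.3 and 46.7 in control cells. Over 12 h 2 of the 27 were over 1.5-fold lower in Cnot3KO cells and 9 in control cells, beside 10.5% of all genes in Cnot3KO cells and 23.2% in control cells, and the median change was 0.00 in Cnot3KO cells and -0.27 in control cells.

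Of 29 histone chaperones and deposition factors 2 were over 1.5-fold higher in Cnot3KO cells before ActD, a share like the 6.87% of all genes, Ruvbl2 by 1.74-fold and Daxx, which deposits H3.3 with Atrx, by 1.67-fold. None passed the genotype test at an adjusted p under 0.05, while at an unadjusted p under 0.05, 8 were higher and 1 was lower, beside 22.4% and 11% of all genes, so the share of higher ones was near that of all genes. In the change over 12 h 1 rose (Dnajc9, adjusted p = 0.037) and 3 fell (Atrx, Ep400 and Ino80, adjusted p of 0.0368, 0.0366 and 0.0296, limma), beside 2.24% and 4.53% of all genes. Asf1a, a chaperone for H3 and H4, had 1708, 1599 and 1726 in Cnot3KO cells, against 1522, 541 and 435 in control cells.

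Of the 16 S phase genes listed none passed the genotype test at an adjusted p under 0.05 and none differed by over 1.5-fold before ActD, where their median difference was 0.25. At an unadjusted p under 0.05, 8 were higher in Cnot3KO cells and 1 was lower, beside 22.4% and 11% of all genes. Their summed intensity was 47388, 48931 and 38443 in Cnot3KO cells at 0, 6 and 12 h, against 40295, 38324 and 29597 in control cells. The sum was higher in Cnot3KO cells at each time, although the ranges over the times overlapped. Summed markers of other cells were measured too, and apart from those of endothelial cells their ranges over the 3 times did not overlap between the genotypes. The 10 macrophage markers summed to between 15364 and 17629 in Cnot3KO cells and between 18705 and 22794 in control cells, and 2 of them were lower at an adjusted p under 0.05. The 7 endothelial markers summed to 901, 569 and 279 in Cnot3KO cells at 0, 6 and 12 h, against 1379, 1385 and 481 in control cells. Their sum was thus lower in Cnot3KO cells at each time, although the ranges over the times overlapped. The 8 stellate and fibroblast markers, of which 7 passed the filter, summed to between 8361 and 13467 in Cnot3KO cells and between 17116 and 18060 in control cells. The 5 cholangiocyte markers summed to between 31629 and 37851 in Cnot3KO cells and between 18157 and 21818 in control cells, and 1 of them was higher at an adjusted p under 0.05. At 0 h 4 of these were higher in Cnot3KO cells and 1, Sox9, was lower (152 against 184). At 12 h Epcam was lower in Cnot3KO cells (1534 against 1686). The 5 erythroid markers summed to between 330.3 and 348 in Cnot3KO cells and between 410.4 and 445 in control cells. The 3 megakaryocyte markers summed to between 1839 and 2218 in Cnot3KO cells and between 2538 and 4107 in control cells. No marker was at 0. In bulk RNA fewer cells of a type and less RNA per cell cannot be told apart, and the part of these cells in the histone values was not tested.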

How the data were processed

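Total RNA of the 6 samples had been hybridised, 1 array per genotype and time, to Affymetrix mouse arrays. Per the labels and methods the authors processed the arrays with RMA (software version not given in the sources used here) and deposited intensities on a linear scale for 45037 probe sets, of which log2 was taken here. RMA equalises the arrays, so a decline common to every mRNA is invisible. The labels gave the groups.

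Probe sets were named by the platform annotation: 34945 had 1 symbol, 932 several and 9160 none. Each gene took its probe set with 1 symbol and the highest mean. Genes above the 20th percentile on at least 1 array were kept (16499, or 16110 over the 0 h arrays). limma 3.58.1 (R 4.3.3) was fitted with genotype and time, and with genotype by hours, each with 2 residual degrees of freedom over all arrays. Fits without the arrays of 1 time leave 1 residual degree of freedom. P-values were adjusted by Benjamini-Hochberg over all genes kept. The scripts were tested on simulated data. The 0 h difference and the change within a genotype have 1 array per group and no test. Promoter sequences came from RefSeq (GRCm38.p6).

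The members, classes and gene lists were chosen with earlier results of these data known. Values on every array are given for all somatic variants, members past a test, replication-dependent members above the array median or with the largest differences. Of the list genes those with the largest 0 h differences or past a test are named, and Slbp, Npat and Asf1a were chosen after their values were seen. Listed genes with no probe set of their own, such as Chaf1a, Hjurp and Ssrp1, and H1f0 were not analysed here. Alternatives were other filters, probe set choices, scalings, class limits, priors and times. The number of arrays limits the precision.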

Additional observations from a re-analysis of the deposited data

Results flagged for a closer look

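In 4 histone genes the intensity was on opposite sides of its 0 h value in the 2 genotypes at both 6 and 12 h, lower in Cnot3KO cells and higher in control cells, and the test of the difference passed for none. The difference in change over 12 h on the log2 scale was -0.406 for H1f2 and -0.378 for H1f10, and -0.269 for H2ap and -0.0887 for H2al2a, both of the germline class. The same holds for 7.55% of all genes. On the other probe sets of H1f2 and H2ap the intensity was not on opposite sides in this way.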

How the results depend on the processing

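The genotype count over all genes, 163, was 0 with no filter and with a filter at the 50th percentile, 1625 when the probe sets of a gene were averaged, 649 on probe sets without a suffix, 2639 with centring on Gapdh and 2063 with an intensity trend in the prior. Without the 0 h arrays it was 5809, and without the 6 h arrays or the 12 h arrays it was 0. For replication-dependent histones the genotype test gave 0 calls, but 1 with Gapdh and 5 without the 0 h arrays, where the median genotype coefficient was -0.62 instead of -0.28. For variants it gave 0, but 1 with the mean of probe sets, 2 with Gapdh, 1 with the trend and 3 without the 0 h arrays. The test of the change over 12 h gave 1 replication-dependent call, but 3 with the mean of probe sets, 4 with Gapdh and 0 for 6 h minus 0 h. It gave 1 variant call, but 2 with Gapdh and 0 for 6 h minus 0 h. Over all genes it gave 1116, but 2153 with Gapdh and 6 for 6 h minus 0 h.

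Replication-dependent genes over 1.5-fold higher at 12 h in Cnot3KO cells numbered 2, or 1 on probe sets without a suffix. Variants so in control cells numbered 3, or 5 with germline genes added and, in an alternative added after seeing the data, 1 without H3f3a and H3f3b. The median replication-dependent change in control cells was 1.08, and 0.237 between 6 and 12 h, also added after seeing the data. Centring on Gapdh, which shares its probe set with other sequences, moved the median change of all genes in control cells to 0.34 from 0.15. The median replication-dependent difference before ActD, 0.0403, was -0.0264 with Gapdh, and the median variant change in Cnot3KO cells, 0.167, was -0.0379 between 6 and 12 h; neither had a test, and no other result changed its sign under the alternatives run. H2bc21 and H2aj kept an adjusted p between 0.00762 and 0.0402 in the test of the change over 12 h, except at 6 h minus 0 h (0.19 for H2bc21 and 0.187 for H2aj). The causes of these shifts were not tested. No paired analysis was possible by replicate number because each group holds 1 array, while the genotype fit holds time as a term and so sets arrays of the same time against each other.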

Other observations

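The macroH2A genes and Cenpa code for histone variants with other symbols. Macroh2a1, whose product is a large H2A variant of silent chromatin, had intensities of 2824, 2555 and 1862 in Cnot3KO cells at 0, 6 and 12 h, against 3134, 4079 and 4062 in control cells. It was lower in Cnot3KO cells at all 3 times, with an adjusted genotype p of 0.10 (limma), and its ranges did not overlap. Macroh2a2 had 66.4, 68.97 and 63.3 in Cnot3KO cells, against 70.7, 71.5 and 63.8 in control cells. Cenpa, the H3 variant of centromeres, had 1613, 1910.2 and 1203 in Cnot3KO cells, against 1659.6, 1965 and 1487 in control cells. Neither passed a test, with adjusted genotype p-values of 0.80 and 0.54 (limma).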
